A study of Mus musculus with 6 samples.

Results

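The transcripts described here are those of 37 genes that the tumour suppressor p53 is known to switch on, read in mouse embryo fibroblasts that have no p53. The members were given as a list of symbols and were matched to the Ensembl identifiers of the count files through GENCODE M21 symbols, and all 37 were found among the 49315 genes counted. The study compared 2 groups of 3 fibroblast lines of the C57BL/6 strain, untreated, at passage 4. Lines SG1, SG2 and SG3 were p53-/-;MDMXSG/SG, that is, homozygous for a knock-in that places W201S and W202G in the MDMX protein (gene Mdm4), residues known from the contact of MDMX with the kinase CK1-alpha. Lines WT3, WT9 and WT11 were p53-/-;MDMXWT/WT, with unaltered MDMX. Both groups are thus p53-null, each line came from a single embryo, and the series has no line with p53. The levels below are therefore basal levels without p53, and how far p53 would raise them was not measured. Values per line are given in the order SG1, SG2, SG3 and WT3, WT9, WT11.

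In a normal fibroblast, p53 is held low by MDM2 and MDMX. DNA damage or other stress frees it, and it then binds paired half-sites in DNA near its target genes and raises their transcription. The targets stop the cell cycle, start apoptosis, repair DNA and adjust metabolism, and many of them also answer to other transcription factors, so that their transcripts do not vanish when p53 is lost. MDMX binds p53 and blocks its activation domain.

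Total counts per library were between 49317925 and 65457242. Mdm4 was between 57.4 and 63.8 CPM (a gene's count scaled to a common library size, with TMM factors) over the 6 lines, and Trp53, counted over the whole gene of the null allele, between 69.2 and 73.1 CPM. Neither value checks the genotype labels, because a change of single codons leaves a gene-level count as it is and the build of the null allele was not given in the sources used here. SG1 and WT9 carried Xist, at 399 and 343 CPM, and had at most 0.163 CPM of Ddx3y. The other 4 lines had at most 0.7 CPM of Xist and 92.2 to 99 CPM of Ddx3y. By these 2 sex-linked transcripts SG1 and WT9 read as female and the other 4 lines as male. Of 12 fibroblast markers, the collagen genes Col1a1 and Col1a2 and the mesenchymal filament gene Vim were between 3760 and 6954 CPM. Of 15 epithelial markers, Epcam, Cdh1, Esrp1, Grhl2, Ovol1 and Trp63 were each at 0.392 CPM or less in every line. Other genes of that list were higher. The summed level of the 15 was 56 to 108 CPM in SG and 72.3 to 99.5 CPM in WT lines. For 10 endothelial markers it was 55.4 to 74.3 CPM in SG and 43.5 to 58.2 CPM in WT lines. For 14 macrophage and blood markers it was 34.6 to 85.8 CPM in SG and 14.8 to 45.7 CPM in WT lines.

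The proximal promoters were searched for p53 half-sites, although many known p53 sites lie outside such a window. RefSeq windows (GRCm38.p6) of 300 bases, from 250 before to 50 after a transcription start, were at hand for 29 of the 37 members. A search for the 10-letter p53 half-site consensus, whose reverse complement is the same pattern, found a match in 10 of the 29 members, which is 34.5%, against 9.55% of all 27025 genes of the table and 8.36% of its 32851 windows. The 10 were Cdkn1a, Bax, Ccng1, Sesn1, Polk, Aen, Gadd45a, Gtse1, Ei24 and Ckap2. Cdkn1a was the single member with a pair of half-sites at most 13 bases apart, a layout held by 0.074% of all genes. Its pair lay 12 bases apart, at -73 to -64 and -51 to -42 relative to the more upstream of its RefSeq starts. Only exact matches were counted. The letters that directly follow the second half-site, tgacatgttc, miss the consensus in their first letter alone. A pair without a gap was therefore not counted there, and the search does not show which letters p53 binds. The 250 bases before the start are shown for 3 members with a match, the arrest gene Cdkn1a, the cyclin gene Ccng1 and the apoptosis gene Bax, with the half-sites in capitals.
Cdkn1a, chr17:29090729-29090978, plus strand: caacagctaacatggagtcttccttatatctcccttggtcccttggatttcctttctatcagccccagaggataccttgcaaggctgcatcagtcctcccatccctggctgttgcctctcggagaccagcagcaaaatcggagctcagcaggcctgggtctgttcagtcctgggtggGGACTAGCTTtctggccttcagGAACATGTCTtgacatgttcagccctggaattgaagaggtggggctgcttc
Ccng1, chr11:40755287-40755536, minus strand: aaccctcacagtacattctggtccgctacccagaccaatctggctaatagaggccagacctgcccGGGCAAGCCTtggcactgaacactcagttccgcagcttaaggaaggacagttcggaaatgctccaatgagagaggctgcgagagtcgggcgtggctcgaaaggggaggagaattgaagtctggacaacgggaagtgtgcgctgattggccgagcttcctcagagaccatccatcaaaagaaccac
Bax, chr7:45466899-45467148, minus strand: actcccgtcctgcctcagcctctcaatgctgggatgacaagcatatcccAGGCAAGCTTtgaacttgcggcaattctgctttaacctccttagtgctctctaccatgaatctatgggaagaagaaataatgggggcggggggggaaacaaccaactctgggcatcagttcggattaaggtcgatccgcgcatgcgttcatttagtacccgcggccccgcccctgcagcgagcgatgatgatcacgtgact

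The windows of Sfn and Plk2 are shown because these were the members whose levels differed between the genotypes. Neither held a match to the half-site, which says only that these letters are not in this window. Capitals mark matches, on either strand, to CCAAT in Sfn and, in Plk2, to GGGCGG (read as CCGCCC) and to TGACGTCA, the binding sequence of CREB and ATF factors. TGACGTCA was added to the search after the Plk2 sequence had been seen. These letters are common in part: CCAAT was in 37.4%, GGGCGG in 35.7% and TGACGTCA in 1.79% of all windows. Btg2 was the other member with TGACGTCA.
Sfn, chr4:133602169-133602418, minus strand: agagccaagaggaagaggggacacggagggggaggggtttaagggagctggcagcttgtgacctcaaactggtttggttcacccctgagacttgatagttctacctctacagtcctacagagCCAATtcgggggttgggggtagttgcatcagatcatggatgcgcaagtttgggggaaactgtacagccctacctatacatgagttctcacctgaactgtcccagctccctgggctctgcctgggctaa
Plk2, chr13:110394794-110395043, plus strand: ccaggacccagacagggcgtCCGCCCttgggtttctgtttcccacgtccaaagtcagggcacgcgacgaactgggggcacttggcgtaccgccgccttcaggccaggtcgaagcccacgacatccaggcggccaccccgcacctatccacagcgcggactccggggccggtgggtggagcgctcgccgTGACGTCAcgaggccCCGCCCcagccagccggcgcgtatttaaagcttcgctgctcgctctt

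Without p53 the 37 transcripts spanned a wide range of basal levels. Compared per length, as TPM (counts divided by the exonic length in the files and scaled to a common total), 8 were above 50, 13 between 10 and 50, 14 between 1 and 10 and 2 below 1. The median member was at 17.1 TPM, beside 12.4 TPM over the 16068 genes that passed the filter on low counts, and 21 members were above the latter value. One member, Cd80, did not pass the filter, so 36 were tested.

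Plk2, a kinase of centriole duplication and of synapses, had the highest level of all members, 463 TPM, above 98% of tested genes. Bax, the pore-forming protein of mitochondrial apoptosis, followed at 177 TPM. Next came Ccng1, the gene of cyclin G1, at 81.7 TPM, Ddit4, an inhibitor of the growth kinase complex TORC1, at 80 TPM, and Pmaip1, which encodes the BH3-only protein NOXA, at 70.4 TPM. All 5 lay above the median of tested genes, which follows from their choice as the highest of the members.

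At the other end were Cd80, a costimulatory ligand for T cells, and Eda2r, a receptor of the TNF receptor family, at 0.268 and 0.464 TPM. Ddb2, the damage sensor of nucleotide excision repair, was at 1.88 TPM, Trp53inp1, a regulator of autophagy and cell death, at 1.9 TPM and Fas, the death receptor, at 3.15 TPM. Cdkn1a, which encodes the CDK inhibitor p21, was at 17.1 TPM, close to the middle of all tested genes (56.3% of them lay at or below it). The 10 members with a half-site in their window ran from 8.64 to 177 TPM, with a median of 37.6 TPM, and the 19 without one from 0.268 to 463 TPM, with a median of 14.3 TPM. No member below 1 TPM had a match, and this difference was not tested.

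**Figure D1:**
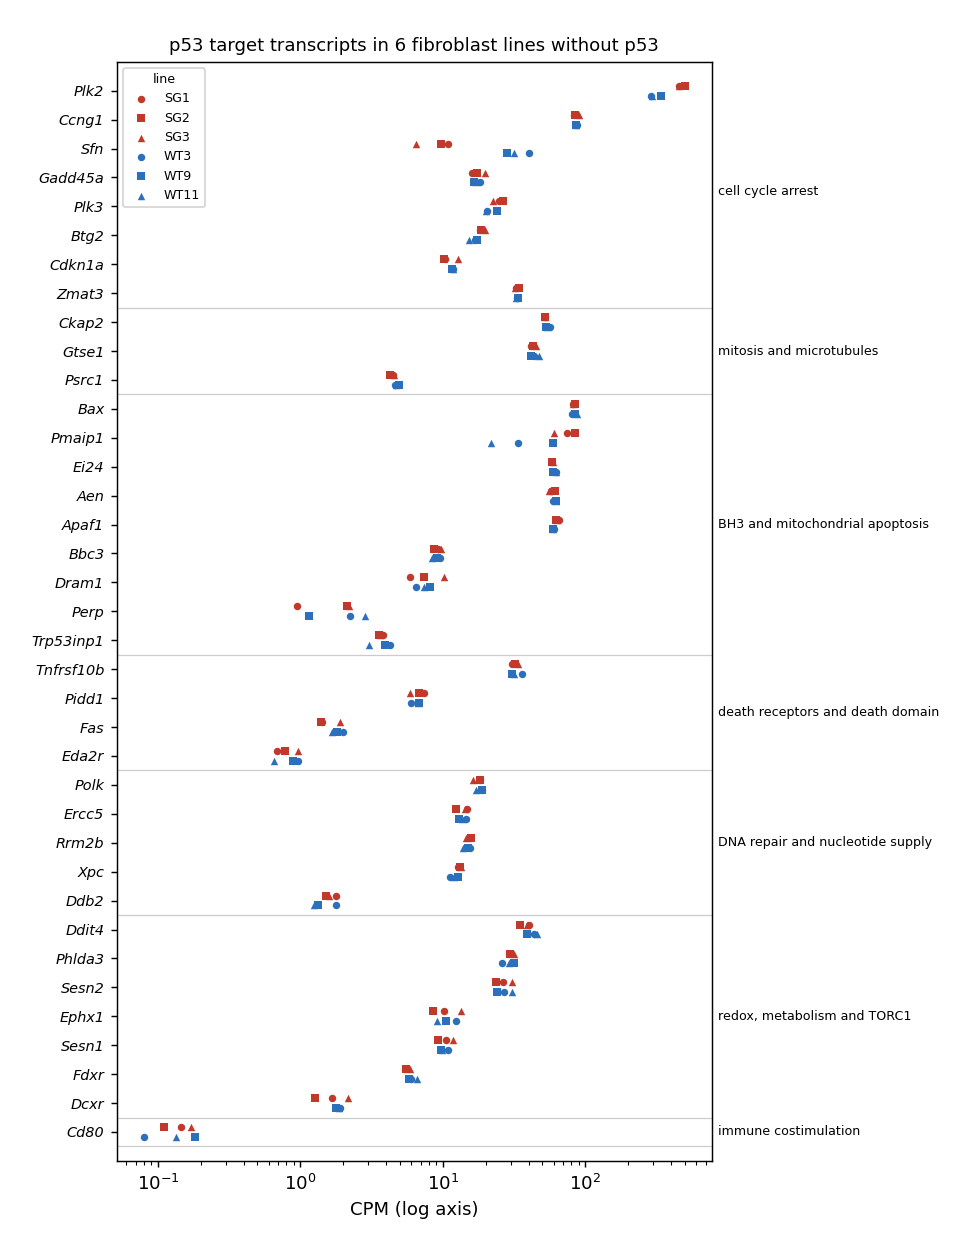
CPM of each of the 37 p53 target genes in each line, on a log axis, with genes grouped by role and SG lines in red above WT lines in blue. For most genes the 6 points lie on top of each other, while those of Sfn and Plk2 fall into 2 groups and those of Pmaip1 and Perp are spread out.

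The question the design puts to these genes is whether they respond to the MDMX mutation when p53 is absent. Sfn, the gene of 14-3-3 sigma, was 3.67-fold lower in SG than in WT lines, and Plk2 was 1.52-fold higher. No other member passed the test. Of the 36 tested, 1 rose, where 0.809% of all tested genes rose, and 1 fell, where 1.1% of all tested genes fell. Over both directions 2 of 36 (5.56%) passed, beside 1.9% of all 16068 genes, and with a count this small nothing is read from the difference. The test was edgeR's quasi-likelihood test of SG against WT, with Benjamini-Hochberg adjustment over all tested genes and a threshold of 0.05, and "adjusted p" below is its value. A positive log2 fold change means a higher level in SG lines.

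The median log2 fold change of the 36 was -0.01, as against 0.00 over all tested genes, with 16 above 0 and 20 below. The log2 fold change was smaller than 0.25 in size for 33 of them (91.7%), and for 76.4% of all tested genes. For 29 members the 95% interval of the fold lay within 1.5-fold in either direction, and for 33 within 2-fold. The 3 whose interval reached further were Sfn, Pmaip1 and Perp. An unadjusted p below 0.05 was found for 5 members (13.9%), a share near the 15.5% of all tested genes. The CPM of the genotypes did not overlap in 9 members (25%), beside 21.2% of all tested genes, 5 of them with SG above WT and 4 with SG below.

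**Figure D2:**
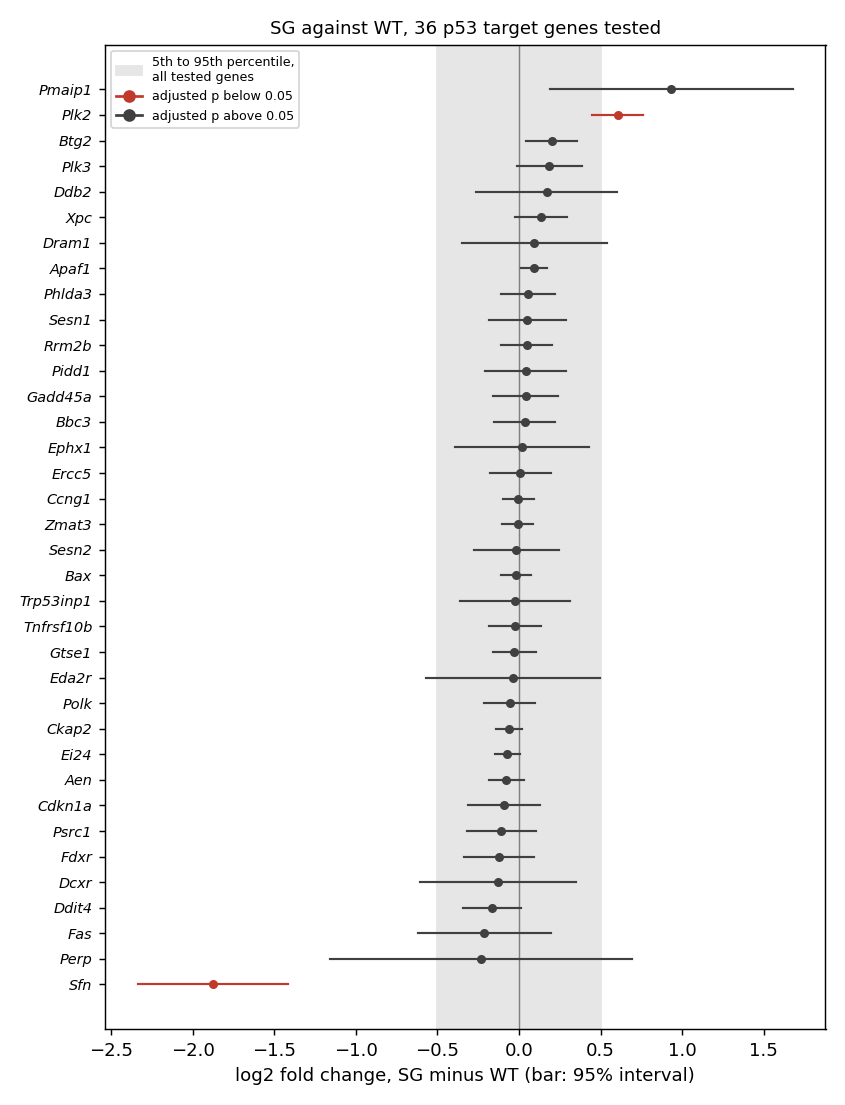
Log2 fold change, SG minus WT, of the 36 tested p53 target genes with its 95% interval, in red where the adjusted p was below 0.05, over a grey band from the 5th to the 95th percentile of all tested genes (-0.50 to 0.50). Sfn, Plk2 and Pmaip1 lie outside the band, and of these Sfn and Plk2 passed the test.

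Among the genes that halt the cell cycle, Sfn (ENSMUSG00000047281, chromosome 4, 133600556 to 133602168, minus strand, GRCm38) was the member with the largest difference. Its protein, 14-3-3 sigma, holds cyclin B and CDK1 in the cytoplasm after damage and is best known from epithelia. Sfn was at 10.9, 9.7 and 6.52 CPM in SG and at 40.1, 28.2 and 31.4 CPM in WT lines. Every SG line was below every WT line, and the lowest WT line was more than double the highest SG line. The means were 9.04 ± 2.27 CPM in SG and 33.2 ± 6.14 CPM in WT (SD, n = 3 each), and the log2 fold change was -1.88 with an SE of 0.20 and a 95% interval of -2.34 to -1.42 (edgeR adjusted p = 0.0106). The call was lost without SG2 (adjusted p = 0.0676) and narrowly without WT11 (adjusted p = 0.051), with log2 fold changes of -1.93 and -1.91.

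Because Sfn is abundant in epithelia, the 15 epithelial markers were read beside it. Of these, 9 passed the filter and none passed edgeR's test. An unadjusted p below 0.05 was found for 4 of the 9, beside 15.5% of all tested genes. DESeq2 called 1, Krt14, as higher in SG. Their summed level was between 56 and 108 CPM in SG and between 72.3 and 99.5 CPM in WT lines, so the genotypes overlapped. Of the 9 tested, 6 lay above 0 and 3 below, with a median log2 fold change of 0.21. Krt19, one of the 3 below 0, was at 35.2 to 58.1 CPM in SG and 57.4 to 70.5 CPM in WT lines. Krt5 was at 0 in every line except SG1 (2.94 CPM) and SG2 (1.68 CPM), and the 6 of the 15 markers named further above were near 0. In bulk RNA, fewer cells that hold a transcript and less of it per cell cannot be told apart, and the part of such cells in the Sfn level was not tested. Of the other 6 genes of the 14-3-3 family, 0 passed in edgeR or DESeq2 and 0 had an unadjusted p below 0.05, with log2 fold changes between -0.08 for Ywhah and 0.04 for Ywhag.

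Plk2 (ENSMUSG00000021701, chromosome 13, 110395044 to 110400844, plus strand) was at 457, 499 and 455 CPM in SG and at 290, 341 and 296 CPM in WT lines. All SG lines were above all WT lines, with a gap of over 100 CPM between the groups. The means were 470 ± 25 CPM in SG and 309 ± 27.6 CPM in WT, the log2 fold change 0.60 with an SE of 0.07 and a 95% interval of 0.45 to 0.76 (edgeR adjusted p = 0.012). The call was lost without SG2 (adjusted p = 0.072), WT3 (0.0599) or WT11 (0.0572), with the fold between 1.47 and 1.49 in these fits. The related kinase gene Plk3 was at 24.6, 26.3 and 22.4 CPM in SG and at 20.5, 23.9 and 20.1 CPM in WT lines, so its groups overlapped (log2 fold change 0.19, adjusted p = 0.356).

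Growth factors also raise Plk2, Plk3 and Btg2 in many cells within the first hour, so 18 immediate early genes such as Fos and Egr1 were read beside them. None of the 18 passed in edgeR or DESeq2, and 1 had an unadjusted p below 0.05, beside 15.5% of all tested genes. Their median log2 fold change was 0.04. Of the 18, 12 lay above 0 and 6 below. A part of growth factors in the Plk2, Plk3 and Btg2 levels was not tested. Btg2, an antiproliferative gene, was at 18.3, 18.7 and 19.8 CPM in SG and at 16.7, 17.4 and 15.3 CPM in WT lines. The groups did not overlap. The log2 fold change of 0.20 (SE 0.07) did not pass the test (adjusted p = 0.196).

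Cdkn1a, the best known p53 target, did not pass the test. It was at 10.4, 10.1 and 12.7 CPM in SG and at 11.8, 11.7 and 11.9 CPM in WT lines. SG3 was the highest line and SG2 the lowest, so the SG lines lay on both sides of the WT lines. The log2 fold change was -0.09 (SE 0.10, adjusted p = 0.713), and the 95% interval of the SG to WT fold was 0.805 to 1.1. Reads of an overlapping gene, AC167363.2, cannot be told apart from those of Cdkn1a without a known strand setting.

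Ccng1, one of the most even members, was at 83.1, 85.1 and 90 CPM in SG and at 87.7, 85.5 and 85.7 CPM in WT lines. Its highest line was 1.08 times its lowest, and the interval of its fold was 0.934 to 1.06. The growth arrest and repair gene Gadd45a and the RNA-binding protein gene Zmat3 also did not pass, with log2 fold changes of 0.04 and -0.01. Zmat3 was the member with the smallest spread, between 32.1 and 34.2 CPM over the 6 lines.

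**Figure D3:**
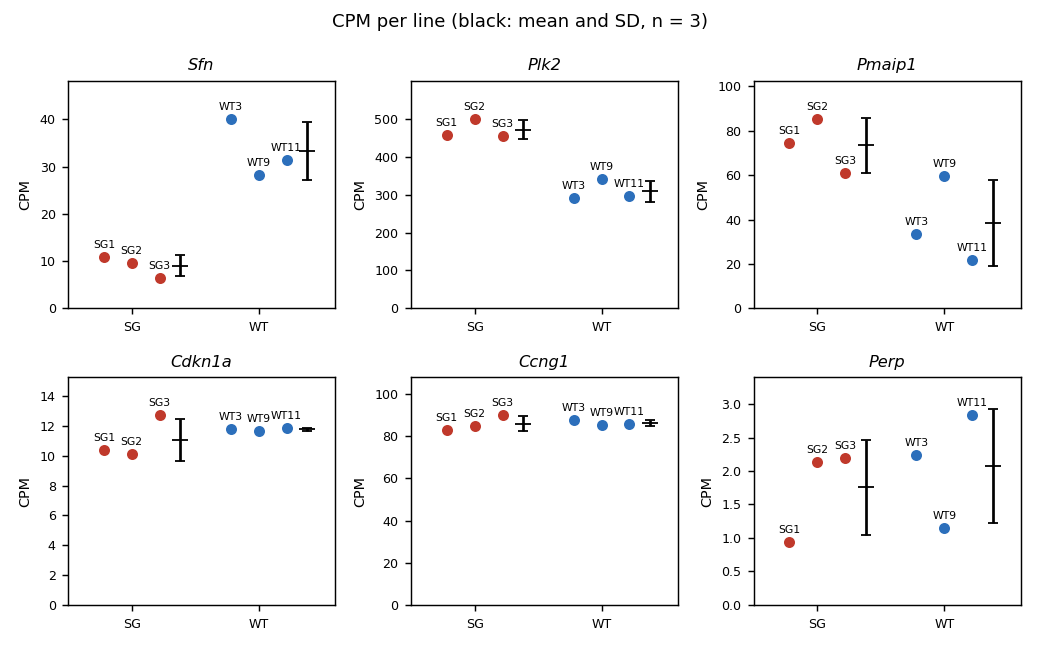
CPM of 6 members in each line (points, named), with mean and SD of each genotype (black, n = 3) and axes that start at 0. Sfn and Plk2 form separate groups, Pmaip1 is separated by a narrow gap between SG3 and WT9, Cdkn1a and Ccng1 overlap, and Perp is low in SG1 and WT9.

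Of the 9 members that act in mitochondrial apoptosis, autophagy or related death programmes, 0 passed in edgeR or DESeq2. An unadjusted p below 0.05 was found for 2, beside 15.5% of all tested genes. Pmaip1 had the largest log2 fold change of the 9. NOXA, its product, binds and neutralises the survival protein MCL1. Pmaip1 was at 74.3, 85.2 and 60.7 CPM in SG and at 33.7, 59.6 and 21.8 CPM in WT lines. The groups were separated by the small gap between SG3 and WT9, and the WT lines themselves differed by more than the means of the genotypes did in fold. The log2 fold change was 0.93 with an SE of 0.32 and a 95% interval of 0.19 to 1.68 (adjusted p = 0.21). It passed without WT9 (log2 fold change 1.41, adjusted p = 0.022), without SG1 and WT9 (1.40, adjusted p = 0.0171) and with no count filter (0.93, adjusted p = 0.0233), and missed the threshold in the 10 other alternatives.

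Bax and Bbc3, the gene of the BH3-only protein PUMA, each varied little between the lines. Bax was at 82.4, 84.3 and 82.6 CPM in SG and at 80.4, 84.8 and 87 CPM in WT lines, and the interval of its fold was 0.927 to 1.05. Bbc3 was at 9.21, 8.73 and 9.74 CPM in SG and at 9.52, 9.05 and 8.44 CPM in WT lines, with an interval of 0.899 to 1.17. In both genes the genotypes overlapped, and the adjusted p were 0.883 and 0.882.

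A pair of members of this group differed little but without overlap. Apaf1, which encodes the scaffold of the apoptosome, was at 65, 62.5 and 63.3 CPM in SG and at 60.3, 59.8 and 59 CPM in WT lines (log2 fold change 0.09, SE 0.03, adjusted p = 0.237). Ei24, an endoplasmic reticulum protein gene, was at 58, 58.4 and 59.2 CPM in SG and at 62.5, 59.8 and 62.1 CPM in WT lines (log2 fold change -0.07, adjusted p = 0.387). Such steps were under 1.1-fold and did not pass the test.

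Perp, a membrane protein of desmosomes and of apoptosis, varied 3-fold over the lines, with overlapping genotypes. It was at 0.942, 2.13 and 2.19 CPM in SG and at 2.24, 1.15 and 2.83 CPM in WT lines. The low lines were SG1 and WT9, which are those with Xist. The log2 fold change between genotypes was -0.23 with a 95% interval of -1.16 to 0.69. Aen, an exonuclease gene, and Dram1, of autophagy, had log2 fold changes of -0.08 and 0.09. Trp53inp1 was at 3.82, 3.56 and 3.61 CPM in SG and at 4.24, 3.93 and 3.01 CPM in WT lines, with overlap (log2 fold change -0.02, SE 0.14). A list of 22 BCL2 family and apoptosome genes shares Bax, Bbc3, Pmaip1 and Apaf1 with the members. Among the 20 tested, 0 passed in edgeR and 4 had an unadjusted p below 0.05, beside 15.5% of all tested genes. Bok, a relative of Bax, came nearest and was the single DESeq2 call (log2 fold change -0.31, SE 0.06, adjusted p = 0.0552).

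Lines with and without Xist are not the study's groups. Xist served as a covariate in an alternative fit of the genotypes, and its own coefficient was read for the members only after their values had been seen, so the Perp values here are a description and no test. In that fit Perp was 2.25-fold lower in SG1 and WT9 than in the other 4 lines (log2 fold change -1.17, SE 0.18). In this contrast 0 of the 36 tested members passed, while over all genes the adjusted p was below 0.05 for 0.0622%. The levels of 4 members (Perp, Gtse1, Gadd45a and Tnfrsf10b) did not overlap between the 2 sets of lines, where 12.8% of all tested genes did not.

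The 4 death receptor and death domain members did not pass in edgeR or DESeq2 either, and 0 had an unadjusted p below 0.05. Fas was at 1.43, 1.39 and 1.9 CPM in SG and at 2, 1.8 and 1.68 CPM in WT lines (log2 fold change -0.21, 95% interval -0.62 to 0.19). Eda2r was at 0.689, 0.783 and 0.959 CPM in SG and at 0.96, 0.887 and 0.65 CPM in WT lines. The 95% interval of the Eda2r fold ran from 0.675 to 1.41. Tnfrsf10b, the mouse receptor of the death ligand TRAIL, was at 30.6 to 36.1 CPM, and Pidd1, a scaffold that activates caspase-2, at 5.91 to 7.36 CPM over the lines.

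Of the 5 members that repair DNA or supply nucleotides for it, 0 passed in edgeR or DESeq2, and 0 had an unadjusted p below 0.05. Ddb2 was at 1.79, 1.5 and 1.59 CPM in SG and at 1.78, 1.33 and 1.25 CPM in WT lines (log2 fold change 0.17, SE 0.19). Xpc, which recognises lesions next to DDB2, was at 12.8, 13.2 and 13.5 CPM in SG and at 11.3, 12.7 and 12 CPM in WT lines, without overlap (log2 fold change 0.13, adjusted p = 0.421). Ercc5, the gene of the nuclease XPG, Polk, a translesion polymerase, and Rrm2b, the ribonucleotide reductase subunit of resting cells, had log2 fold changes of 0.01, -0.06 and 0.05. Over a list of 16 nucleotide excision repair genes, which holds Ddb2, Xpc and Ercc5, 0 passed in edgeR or DESeq2, 0 had an unadjusted p below 0.05 and the median log2 fold change was 0.02.

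The 7 members of redox balance, metabolism and TORC1 control did not pass in edgeR or DESeq2, and 0 of them had an unadjusted p below 0.05. Ddit4 was at 40.6, 35 and 38.9 CPM in SG and at 43.5, 38.8 and 46.1 CPM in WT lines, with SG1 and SG3 above WT9 (log2 fold change -0.16, SE 0.08, adjusted p = 0.365). Dcxr, a carbonyl reductase gene, was at 1.67, 1.27 and 2.16 CPM in SG and at 1.9, 1.77 and 1.88 CPM in WT lines (log2 fold change -0.13, SE 0.21). The leucine and stress sensor genes Sesn1 and Sesn2 had log2 fold changes of 0.05 and -0.02, Phlda3, an inhibitor of AKT, 0.05, the epoxide hydrolase gene Ephx1 0.02 and the mitochondrial reductase gene Fdxr -0.12.

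Ddit4 and Sesn2 are also raised by the amino acid stress factor ATF4, so 18 genes of that response were read beside them. All 18 lay below 0 under each of the 3 edgeR scalings and in DESeq2, with a median log2 fold change of -0.10. None passed in edgeR, and 3 had an unadjusted p below 0.05, beside 15.5% of all tested genes. DESeq2 called 1, Nupr1, as lower in SG. Their summed level was 2944, 2876 and 3222 CPM in SG and 3150, 3024 and 3478 CPM in WT lines, so the genotypes overlapped. Their part in the Ddit4 level was not tested.

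Gtse1, Ckap2 and Psrc1, which act on microtubules and the spindle, stayed within narrow limits, and 0 of them passed in edgeR or DESeq2 or had an unadjusted p below 0.05. Ckap2 was at 52.4, 52 and 52.4 CPM in SG and at 56.3, 53.1 and 54.3 CPM in WT lines, and Psrc1 at 4.46, 4.29 and 4.52 CPM in SG and at 4.64, 4.97 and 4.7 CPM in WT lines. Both were lower in every SG line, by log2 fold changes of -0.06 and -0.11 that did not pass (adjusted p = 0.468 and 0.633). Gtse1 overlapped, at 41.4 to 47.6 CPM. Of 20 other mitotic genes, 19 lay below 0 (18 with upper quartile scaling), with a median log2 fold change of -0.07. Their summed level was 2814 to 2884 CPM in SG and 2896 to 3095 CPM in WT lines. The groups were separated only by the narrow gap between SG2 and WT9, under TMM scaling. The genotypes did not overlap in 7 of the 20, beside 21.2% of all tested genes. Of the 20, 0 passed in edgeR or DESeq2 and 4 had an unadjusted p below 0.05, beside 15.5% of all tested genes.

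Cd80 was too low for a test. It had 8, 7 and 10 reads in SG and 4, 12 and 8 in WT lines, which is at most 0.183 CPM. Cd80 belongs to antigen-presenting cells, and the summed level of 14 macrophage and blood markers was between 34.6 and 85.8 CPM in SG and between 14.8 and 45.7 CPM in WT lines, with overlap. All 13 of them that passed the filter lay above 0, with a median log2 fold change of 0.56, but 0 passed in edgeR or DESeq2 and 0 had an unadjusted p below 0.05. Their part in the Cd80 counts was not tested.

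In the wider p53 pathway, 26 other genes known as p53 targets were all tested. None passed in edgeR, and the median log2 fold change was -0.04. An unadjusted p below 0.05 was found for 10 of the 26, a larger share than the 15.5% of all tested genes. DESeq2 called 2, Steap3 and Pmm1, both lower in SG, where it called 948 of all 16068 genes. The difference in shares was not tested. Mdm2, the target that closes the feedback loop on p53, was at 80.2, 77.7 and 70.3 CPM in SG and at 74.3, 80 and 77.5 CPM in WT lines (log2 fold change -0.02, adjusted p = 0.888). The smallest p among the 26 belonged to Pmm1, a phosphomannomutase gene (log2 fold change -0.29, SE 0.07, adjusted p = 0.0745). Trp53cor1, the gene of lincRNA-p21, was at 0.489 CPM or less in every line.

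Of 15 genes of the p53 family and its regulators, 13 passed the filter and 0 passed edgeR's test. An unadjusted p below 0.05 was found for 3, beside 15.5% of all tested genes, and DESeq2 called 1, Cdkn2a. The p53 relatives Trp63 and Trp73, which can bind the same half-sites, were at most at 0.163 CPM in any line and did not pass the filter. Cdkn2a, which encodes p16 and the MDM2 inhibitor ARF from the same gene, was at 219, 237 and 245 CPM in SG and at 209, 181 and 180 CPM in WT lines, without overlap (log2 fold change 0.30, SE 0.07, adjusted p = 0.0758).

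Across all 6 lines the members varied about as much as other genes. The median SD of log2 CPM over the lines was 0.115 for the 36 tested members and 0.117 for all tested genes, and within genotypes it was 0.105 and 0.102. For 29 of the 37 members the highest line was less than 1.5 times the lowest. It was more than 2 times the lowest for 4: Sfn, Pmaip1, Perp and the barely counted Cd80. The coefficients of variation of Sfn, Pmaip1 and Perp were 65.7%, 43% and 37.7%.

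No line stood apart over the whole list. The median deviation of the members from their own mean ran from -0.02 in SG1 to 0.06 in SG3 on the log2 scale. SG3 was the highest line for 11 members and SG2 the lowest for 10, and each line was the highest for at least 2. The exons of 8 members overlap those of another gene in GENCODE M21 (Cdkn1a, Bax, Ephx1, Gadd45a, Plk3, Rrm2b, Ddb2 and Ei24), so their counts are uncertain. Sfn, Plk2, Pmaip1 and Perp are not among them.

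**Figure D4:**
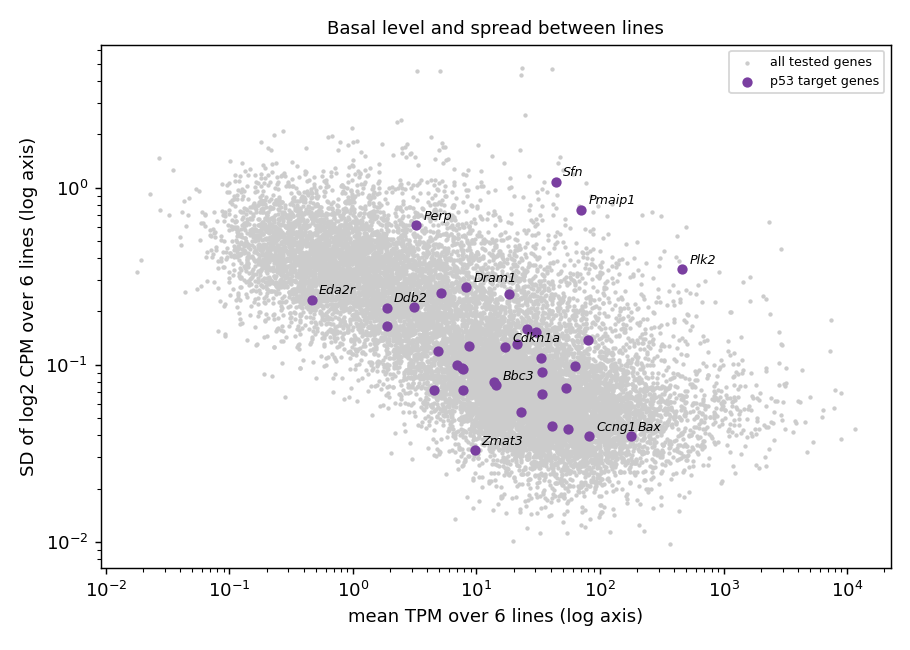
Mean TPM over the 6 lines against the SD of log2 CPM over the lines, both on log axes, for all tested genes (grey) and for the 36 tested members (purple). Most members lie within the grey cloud at their level, and Sfn (SD 1.08), Pmaip1 (0.75), Perp (0.61) and Plk2 (0.35) are the 4 members with the largest spread.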

How the data were processed

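Poly(A)-selected RNA of 6 fibroblast lines had been sequenced. The authors deposited raw gene-level read counts (whole numbers, not normalised), in the layout of featureCounts per the file headers. Per the submitters' processing notes, Trimmomatic 0.36, STAR 2.5.2b, featureCounts from Subread 1.5.2, DESeq2 and GRCm38 are listed. For the annotation release, the strand setting and multimapping, the answer is not given in the sources used here. Symbols came from GENCODE M21. Groups and line numbers came from the sample titles.

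Counts were filtered with filterByExpr in edgeR 4.0.16 (R 4.3.3), scaled by TMM and tested with glmQLFit and glmQLFTest, 2-sided, with no covariate and with adjustment over all 16068 genes tested. A replicate is a line from a single embryo, read in a single library, so p-values rest on the spread between lines. Differences between embryos, cultures and library preparations are not separated in it. With 3 lines a group, precision rests mainly on their number. For members with few reads, such as Eda2r (38 to 58 reads a line), depth limits it as well. SEs were derived from the F statistic as size of log2 fold change over root F, and 95% intervals use the fit's degrees of freedom. TPM used the lengths in the files. The fit was also run on simulated counts with 200 changed genes. Their dispersions came from these same libraries, so that run does not vouch for the calls given here. Alternatives were other scalings (RLE, upper quartile), no count filter, DESeq2 1.42.0, a robust prior, Xist as a covariate, leaving out SG1 and WT9 together, and leaving out each line.

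The members and all lists were chosen with earlier results of these data known. By the rule for named genes, values per line are given for members past the threshold, the 5 highest and 5 lowest by TPM, the 5 largest log2 fold changes per direction, Cdkn1a, Bax, Bbc3, Pmaip1 and Ccng1, the 3 most variable, and those without overlap between genotypes. Other genes come from the lists. Of these Bok, Pmm1, Steap3, Cdkn2a, Nupr1, Krt5, Krt14, Krt19, Ywhah, Ywhag and Trp53cor1 fall outside the rule and were chosen after their values were seen. The same holds for Pdgfrb, Vim and Postn, named as DESeq2 calls. Col1a1, Col1a2, Epcam, Cdh1, Esrp1, Grhl2, Ovol1, Fos and Egr1 also fall outside the rule.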

Additional observations from a re-analysis of the deposited data

How the results depend on the processing

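All 13 alternatives listed among the methods were run. Over all tested genes, 130 rose and 176 fell. These counts were 421 and 538 with no count filter, 430 and 518 with DESeq2, and 315 and 388 without SG1 and WT9. Leaving out single lines gave 2 to 234 higher and 1 to 345 lower, the fewest without SG2. Among the members, 1 rose and 1 fell, and 2 rose with no count filter or without SG1 and WT9, Pmaip1 being the one added. Leaving out single lines gave 0 to 2 members higher and 0 to 1 lower. Both counts were 0 without SG2 or WT11, and 0 rose without WT3, while 2 rose without WT9. The Sfn log2 fold change ran from -2.13 to -1.69 and that of Plk2 from 0.56 to 0.70 over all alternatives, and Sfn passed in 11 and Plk2 in 10 of the 13. Of the 34 members that did not pass, 33 passed in none of the 13. The sign of 18 of the 34, each at most 0.23 in size, changed in at least 1 alternative. No paired analysis was possible because the genotypes share a single line number, 3, which the labels do not tie to a common litter or day.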

Other observations

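Among 12 fibroblast markers, 2 passed edgeR's test, both lower in SG lines, beside 1.9% of all tested genes. DESeq2 called 5 of the 12 (Thy1, Pdgfrb, Vim, S100a4 and Postn), all lower, where it called 948 of all 16068 genes. With counts this small nothing is read from the difference. Of the 12, 9 lay below 0 and 3 above, and their summed level overlapped, at 15074 to 18009 CPM in SG and 16682 to 17188 CPM in WT lines. Thy1, a surface glycoprotein that divides fibroblasts into subsets, was at 309, 264 and 267 CPM in SG and at 470, 438 and 472 CPM in WT lines (log2 fold change -0.72, SE 0.07, edgeR adjusted p = 0.00802). S100a4, a calcium-binding protein gene, was at 51.5, 51.4 and 72.1 CPM in SG and at 126, 90.6 and 131 CPM in WT lines (log2 fold change -0.99, SE 0.17, adjusted p = 0.0362). Both lay below WT in every SG line. Thy1 passed in 12 of the 13 alternatives and was lost without SG2 (adjusted p = 0.0629). S100a4 passed in 8 and was lost without SG1 (0.0539), SG2 (0.169), WT3 (0.141) or WT11 (0.133) and with a robust prior (0.104).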
